A study of Mus musculus with 47 samples.

Results

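Striatal RNA of Q140 mice with 1 mutant copy of Ccdc82 was compared with that of Q140 mice with both copies intact. The comparison held 16 of the 47 libraries of the series, chosen by genotype label alone: 8 Q140 Ccdc82+/- libraries and 8 Q140 libraries, each from 4 females and 4 males. Both groups carried 1 knock-in Htt allele (Q140), had a C57BL background and were 6 months old when the corpus striatum was dissected. The other groups were wild type, Ccdc82+/- and Ccdc82-/- mice without Q140 (8 libraries each) and Q140 Ccdc82-/- mice (7 libraries). How the Ccdc82 allele was made, the repeat length of each animal and any littermate relation are not given in the sources used here. The labels give a sex, a replicate number and a plate well for each library but do not state that a library is 1 animal, so p-values measure the spread between these libraries.

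Q140 mice carry an Htt allele with an expanded CAG repeat and are used as a model of Huntington's disease. In this disease the medium spiny neurons of the striatum, the principal output cells that carry dopamine receptors D1 or D2, lose much of their characteristic gene expression. Ccdc82 encodes a coiled-coil domain protein of little known function. The human gene lies in a genomic region that association studies have linked to the age at which Huntington's disease begins. The comparison asks which genes of the Q140 striatum are at another level when 1 Ccdc82 copy is mutant.

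Total counts were 43.8 to 61.7 M per library in Q140 (median 51.3 M) and 42.8 to 58.8 M in Q140 Ccdc82+/- (median 45.9 M). Mitochondrially encoded transcripts took 5.89% to 6.27% of counts in Q140 and 5.78% to 6.18% in Q140 Ccdc82+/-. Xist levels matched the labelled sex in all 47 libraries. The defining markers of the striatum were abundant: over all libraries Ppp1r1b had a mean log2 CPM (CPM is counts per M counts after TMM scaling) of 11.13, Drd1 8.36 and Drd2 7.65. The groups were spread unevenly over the plate: column 4 held 3 Q140 Ccdc82+/- libraries and 0 Q140 libraries. Library names carry a number whose meaning is not given in the sources used here. It took 6 values among the 8 libraries of each group, and 1 value occurred in both. With that number as a random block in limma the estimated correlation was 0.147, and Ccdc82 was again the 1 gene past the threshold.

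Ccdc82 mRNA was lower in Q140 Ccdc82+/- striatum. The 4 Q140 females had 10.87, 12.65, 12.77 and 11.56 CPM and the 4 Q140 males 11.55, 12.5, 11.04 and 10.11 CPM. The 4 Q140 Ccdc82+/- females had 8.65, 7.274, 9.989 and 8.198 CPM and the 4 males 9.168, 9.512, 7.602 and 8.462 CPM. The groups did not overlap, and the closest libraries were a Q140 Ccdc82+/- female and a Q140 male. The means were 11.6 ± 0.950 CPM (SD, n = 8) in Q140 and 8.61 ± 0.927 CPM (SD, n = 8) in Q140 Ccdc82+/-, so the level was 74.0% of that in Q140. The log2 fold change was -0.43 (95% confidence interval -0.57 to -0.30), with an adjusted p of 0.000627 in edgeR's quasi-likelihood test. An exact two-sided permutation test gave p = 0.0001554, the smallest that 12870 arrangements of 16 libraries allow. These values rest on 334 to 666 reads per library.

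**Figure D1:**
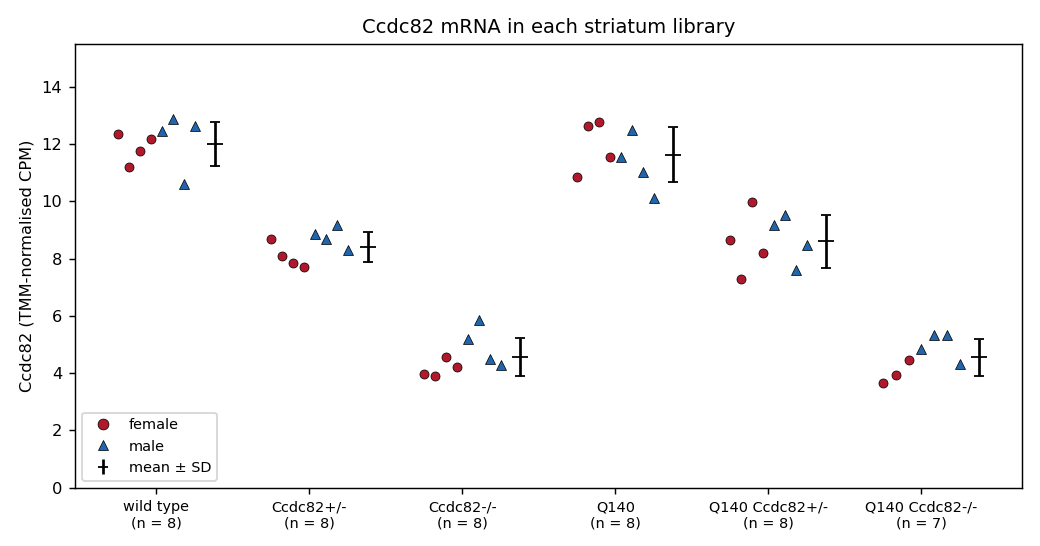
Ccdc82 mRNA in TMM-scaled CPM (y axis, from 0) in each of the 47 libraries by genotype group (x axis), with females as circles, males as triangles and the mean with its SD at the right of each group. The Q140 Ccdc82+/- libraries lie between 7.274 and 9.989 CPM, below every Q140 library.

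The same step without the Q140 allele gave a Ccdc82 log2 fold change of -0.51 (95% confidence interval -0.65 to -0.38) between Ccdc82+/- and wild type, groups that share no library with the main comparison. Its difference from the step within Q140 was not past the threshold, with an adjusted p of 0.974 in edgeR and a 95% confidence interval of -0.11 to 0.27 around 0.08. In Q140 Ccdc82-/- striatum the gene was at a log2 fold change of -1.36 against Q140, the same 8 Q140 libraries as above. Those 7 libraries still held 3.67 to 5.35 CPM of reads assigned to Ccdc82, and which part of the transcript they come from cannot be read from a gene-level table. By sex, the Ccdc82 log2 fold change within Q140 was -0.49 in females and -0.38 in males.

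The gene (ENSMUSG00000079084) spans 13246955 to 13292520 on the plus strand of chromosome 9 in GRCm38. Its promoter is shown because Ccdc82 was the only gene that passed the test, and because its neighbour Jrkl starts 1126 bases away on the opposite strand. RefSeq's window for GRCm38.p6, chr9:13246709-13247005 on the plus strand, reads 5′ to 3′ as follows, after leaving out 3 unread bases. Capitals mark GGGCGG, the core of the GC box bound by Sp-family factors.
Ccdc82 promoter: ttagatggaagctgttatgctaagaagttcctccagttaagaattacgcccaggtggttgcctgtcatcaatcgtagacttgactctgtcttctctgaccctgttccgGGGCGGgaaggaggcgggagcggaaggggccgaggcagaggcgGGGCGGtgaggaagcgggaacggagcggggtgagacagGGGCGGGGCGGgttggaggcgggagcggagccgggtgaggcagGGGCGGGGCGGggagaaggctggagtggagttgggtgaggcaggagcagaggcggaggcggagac
GGGCGG occurred 6 times on the strand shown, counting pairs that overlap by 1 base, and its reverse complement CCGCCC 0 times. Of 32841 promoter windows of 300 bases, 35.7% held GGGCGG on either strand. TATAAA was not in the window on either strand, and 13.6% of windows held it. The GC content was 65% against a median of 52.7% over the windows.

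No gene around Ccdc82 passed the threshold in edgeR. The 6 genes tested within 1 Mb of it were at log2 fold changes of -0.05 to 0.10, with 1 at an unadjusted p under 0.05. Jrkl, a member of the Jerky family of transposase-derived proteins, had 8.88 to 11.6 CPM in Q140 and 9.41 to 10.9 CPM in Q140 Ccdc82+/-. These ranges overlapped, with a log2 fold change of 0.02 (95% confidence interval -0.08 to 0.13). Maml2, a Notch coactivator, was at 0.10 (-0.02 to 0.22), and Mtmr2, a phosphoinositide phosphatase, at -0.05 (-0.11 to 0.02). The centrosomal gene Cep57 was at 0.08 with an unadjusted p of 0.0499 and an adjusted p of 0.858 in edgeR, Fam76b at 0.04, and Sesn3, a sestrin, at -0.02. Htt itself, whose knock-in allele both groups carry, had 183 to 220 CPM in Q140 and 196 to 214 CPM in Q140 Ccdc82+/-, with a log2 fold change of 0.05 (95% confidence interval -0.01 to 0.10).

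Across the transcriptome, Ccdc82 alone passed the threshold. It was 1 of 19193 genes tested (0.00521%) at an adjusted p under 0.05, with 0 genes higher and 1 lower. The unadjusted p was under 0.05 for 1101 genes (5.74%), 525 higher (2.74%) and 576 lower (3%). DESeq2 and limma voom each also called 1 gene, which was Ccdc82, so every count of 0 in the gene lists below holds in all 3 tools. The fitted log2 fold change was above 0 for 50.4% of genes, with a median of 0.00055.

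The 95% confidence intervals show how large a difference these data leave possible for each gene. They are not adjusted for the number of genes tested, so a difference as large as a half-width need not pass the threshold. Over the 13938 genes whose log2 CPM averaged 1 or more, the median absolute log2 fold change was 0.031 and the 99th percentile 0.21. The median half-width of the 95% confidence interval was 0.085. The interval lay within 0.25 on the log2 scale on both sides of 0 for 12240 of these genes (87.8%), and within 0.5 for 13779 (98.9%). It lay within 0.1 for 36.9%, so for the other genes these data do not limit the difference to 0.1 or less. Low-level genes scatter more widely, as the plot of all genes shows.

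**Figure D2:**
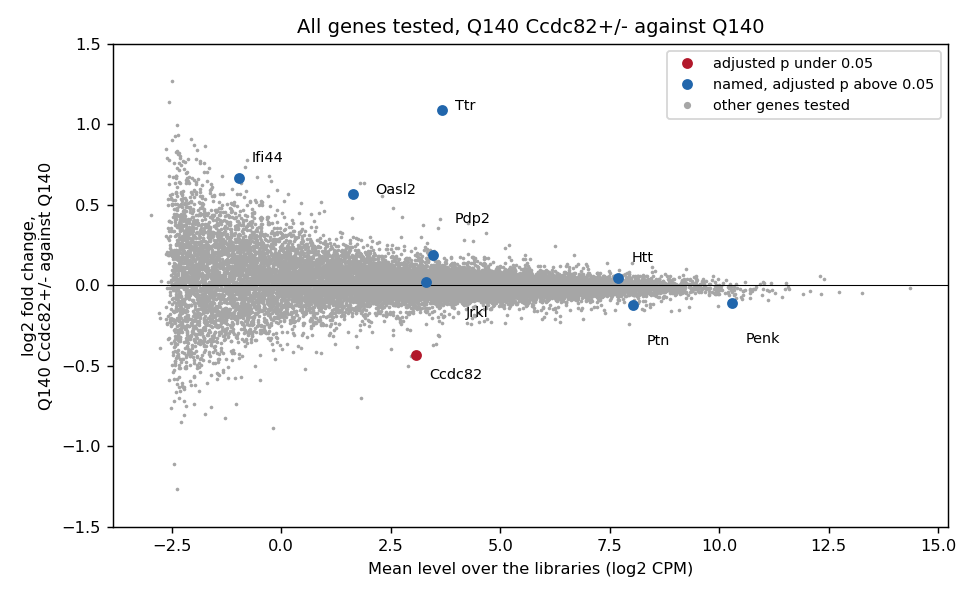
Log2 fold change of Q140 Ccdc82+/- against Q140 (y axis) by mean log2 CPM over the libraries (x axis) for each of the 19193 genes tested. The red point, Ccdc82 at -0.43, is the gene past the threshold, and the blue points are named genes that did not pass.

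The genes next in order of p are given with their values, and none of them passed (adjusted p 0.754 to 0.844 in edgeR). Pdp2, a catalytic subunit of the phosphatase that activates pyruvate dehydrogenase, had 10.62, 10.5, 9.522 and 11.18 CPM in Q140 females and 10.21, 10.96, 11.26 and 10.65 CPM in Q140 males. It had 12.13, 11.51, 11.62 and 11.79 CPM in Q140 Ccdc82+/- females and 12.35, 12.28, 12.9 and 12.06 CPM in the males. The Pdp2 ranges did not overlap, and its log2 fold change was 0.19 (95% confidence interval 0.10 to 0.28), against -0.00 for the same step without Q140. Higher values were also fitted for Gltscr2, a ribosome biogenesis factor (0.10), Kif7, a kinesin of Hedgehog signalling (0.30), Sphkap, an anchoring protein of protein kinase A (0.14), and Nav1, a neuron navigator (0.12). The remaining genes of this kind were Abhd18 (0.13), 9430076C15Rik (0.43), Ehbp1 (0.08), Gm14204 (0.18) and Trim66 (0.17).

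Ptn, the growth factor pleiotrophin, had the smallest p among genes with lower values after Ccdc82. It ranged from 244 to 286 CPM in Q140 (median 271) and from 234 to 255 CPM in Q140 Ccdc82+/- (median 246). The Ptn ranges overlapped, with a log2 fold change of -0.12 (95% confidence interval -0.18 to -0.06) and an adjusted p of 0.754 in edgeR. Lower values were also fitted for Lix1 (-0.14), Zfp131, a zinc finger protein (-0.13), Fmo1, a flavin monooxygenase (-0.21), and Adgrl4, an adhesion receptor of endothelial cells (-0.23). Mei4, which is needed for meiotic DNA breaks, was at -0.21. The processed pseudogenes Gm10254 (-0.18), Gm10123 (-0.08) and Gm11993 (-0.18) completed the set, and reads of such copies may be shared with their parent genes, so their values are uncertain.

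Groups whose CPM ranges did not overlap were found for 6 genes (0.0313% of those tested). These were Ccdc82, Pdp2, Mei4, Ptges2, Smt3h1-ps and Gm13578, and the last 3 are named after their values were seen. Ptges2, a prostaglandin E synthase, was at a log2 fold change of -0.12 with an adjusted p of 0.844 in edgeR. Smt3h1-ps was at -0.62 and Gm13578 at -0.39, both at low levels, with a mean log2 CPM of -2.05 and 0.46.

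Genes that change with the Q140 allele were followed as a group to describe the Q140 state of the dissected tissue. They were chosen in other libraries, by comparing Q140 Ccdc82-/- with Ccdc82-/- striatum, where 6367 of 19193 genes passed (33.2%), 3360 higher and 3007 lower. With an absolute log2 fold change of at least 0.5 in that comparison and a mean log2 CPM of at least 1, 158 rising and 287 falling genes were kept. In Q140 Ccdc82+/- against Q140, 0 of the 158 and 0 of the 287 passed in edgeR, and 10 and 22 had an unadjusted p under 0.05, against 5.74% of all genes. Of the rising genes 122 (77.2%) were fitted above 0, against 50.4% of all genes, with a median log2 fold change of 0.04. Of the falling genes 179 (62.4%) were fitted below 0, against 49.6% of all genes, with a median of -0.03. For the 15 rising and 48 falling genes with an absolute log2 fold change of at least 1 the medians were 0.007 and -0.041. Without Q140 male 4, 110 of the 158 rising genes were above 0 (median 0.03) and 151 of the 287 falling genes below 0 (median -0.008). Without Q140 female 2 the falling genes had a median of -0.013 with 158 below 0. In fits of 1 sex, 70 of 158 rising genes were above 0 in females (median -0.02) and 128 in males (median 0.12), and the falling genes had medians of -0.008 and -0.05. The same step without Q140 had 72 of 158 rising genes above 0 (median -0.012), against 49.4% of all genes. Of the falling genes 175 of 287 were above 0 there (median 0.015), so both medians had the opposite sign to those within Q140.

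The 10 genes with the largest Q140 rise were at log2 fold changes of -0.31 to 0.28 in the main comparison. Sfmbt2, a Polycomb-associated gene that rose by 1.85 with Q140 on the Ccdc82-/- background, was at 0.05 (95% confidence interval -0.16 to 0.26). It had 6.64 to 11.1 CPM in Q140 (median 8.77) and 5.55 to 10.97 CPM in Q140 Ccdc82+/- (median 9.40), with overlapping ranges. Rprm, an inhibitor of cell cycle progression, rose by 1.45 with Q140 and was at -0.00 here. Nts, the neuropeptide neurotensin, rose by 1.17 with Q140 and was at 0.28 (-0.14 to 0.71). The desmosomal gene Dsp, with a Q140 rise of 1.40, was at -0.29 (-0.67 to 0.09).

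Among the 10 genes with the largest Q140 fall, Ttr, the thyroid hormone carrier of the choroid plexus, stood apart with a log2 fold change of 1.09 and an interval of -0.63 to 2.81. Ttr had 0.03898 to 6.848 CPM in Q140 and 2.208 to 22.06 CPM in Q140 Ccdc82+/-, with overlapping ranges. In the libraries that chose these genes, the mean log2 CPM of choroid plexus markers was 3.22 in Ccdc82-/- male 1. It was -0.12 to 0.42 in the other Ccdc82-/- libraries and -0.33 to 0.50 in Q140 Ccdc82-/-. The part of that 1 library in the Q140 fall of Ttr was not tested. The other 9 of the 10 falling genes were at -0.29 to 0.17. Gpx6, a glutathione peroxidase that fell by 2.55 with Q140, was at -0.04 (95% confidence interval -0.43 to 0.34). Ddit4l, an inhibitor of mTOR signalling, fell by 1.90 with Q140 and was at -0.22 (-0.40 to -0.04), and Plk5, a polo-like kinase, fell by 1.71 and was at 0.17 (0.02 to 0.32). Neither passed (adjusted p 0.858 for both in edgeR).

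**Figure D3:**
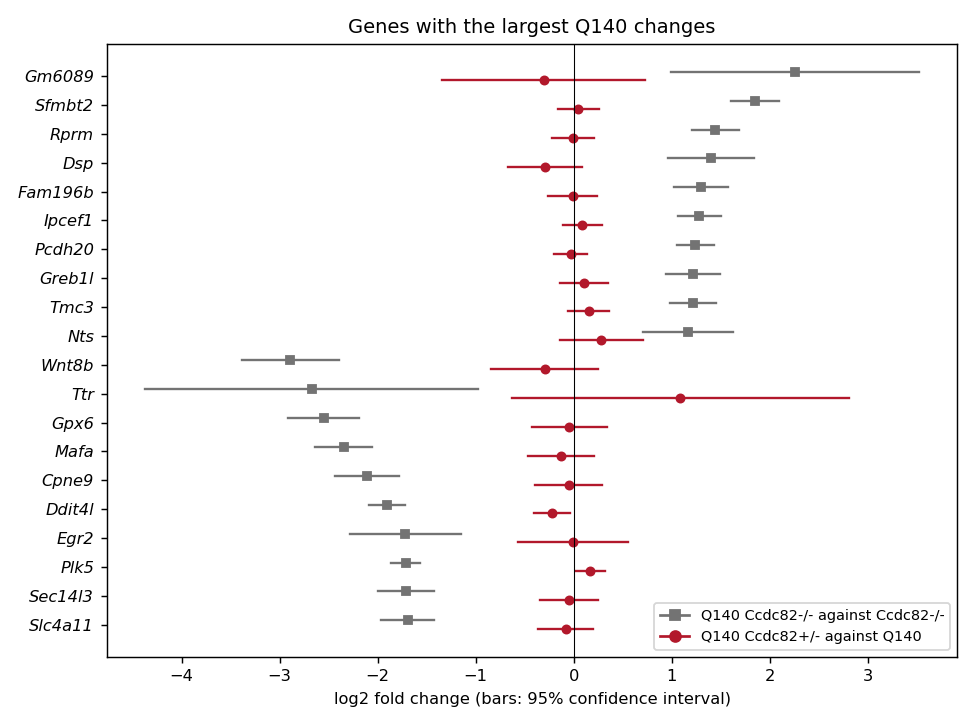
Log2 fold change (x axis) with its 95% confidence interval for the genes that rose most (upper 10) and fell most (lower 10) with Q140 on the Ccdc82-/- background (grey squares), and for the same genes in Q140 Ccdc82+/- against Q140 (red circles). The red circles lie between -0.31 and 1.09, and Ttr has the widest interval.

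The mean log2 CPM of the 158 rising genes minus that of the 287 falling genes was calculated for each library as a level of the Q140 genes. It was lowest at -1.06, -0.77 in the median and highest at -0.67 in Q140, and -0.95, -0.72 and -0.59 in Q140 Ccdc82+/-. Wild type libraries lay between -2.31 and -2.05 and Ccdc82+/- libraries between -2.27 and -2.04. Every Q140 Ccdc82+/- library lay above all wild type and Ccdc82+/- libraries, and its group overlapped with Q140. The mean differed by 0.060 between Q140 Ccdc82+/- and Q140, and by 1.375 between Q140 and wild type. With only the 15 rising and 48 falling genes of the larger changes, the first difference was 0.028. Without Q140 male 4, the library with the lowest level, the 0.060 became 0.022. Without Q140 Ccdc82+/- female 1 it was 0.039, and without Q140 Ccdc82+/- female 4 it was 0.090.

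**Figure D4:**
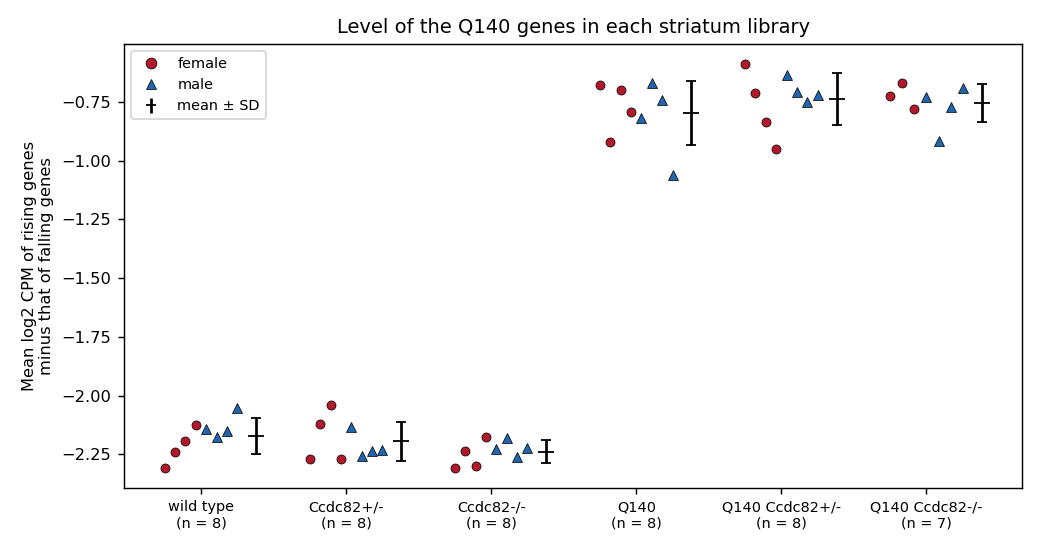
Mean log2 CPM of the rising minus that of the falling Q140 genes (y axis) in each library by genotype group (x axis), with females as circles, males as triangles and the mean with its SD. The genes were chosen by the Ccdc82-/- and Q140 Ccdc82-/- groups, so the gap between those columns follows from the choice, and the Q140 and Q140 Ccdc82+/- columns overlap.

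Of the marker genes of medium spiny neurons, none passed the threshold in edgeR. The shared markers had a median log2 fold change of -0.52 with Q140 on the Ccdc82-/- background. In bulk tissue, fewer cells of a type and less RNA per cell cannot be told apart. In Q140 Ccdc82+/- against Q140, 11 of 28 shared markers were fitted above 0, 3 were lower at an unadjusted p under 0.05 (Arpp19, Ddit4l and Hpca) against 3% of all genes, and the median was -0.02. Arpp19, a phosphatase inhibitor, was at 0.01 in females and -0.17 in males. The mean log2 CPM of these markers was 8.47 to 8.75 in Q140 and 8.52 to 8.66 in Q140 Ccdc82+/-, ranges that overlapped. The median was 0.01 over 10 direct pathway markers and -0.03 over 9 indirect pathway markers, each with 1 lower at an unadjusted p under 0.05. Penk, the enkephalin precursor of indirect pathway neurons, had 740 to 927 CPM in Q140 (median 813) and 694 to 848 CPM in Q140 Ccdc82+/- (median 762). The Penk ranges overlapped, and its log2 fold change was -0.11 (95% confidence interval -0.19 to -0.03) with an adjusted p of 0.858 in edgeR. Pdyn, the dynorphin precursor of direct pathway neurons, was at 0.11 (-0.06 to 0.28), and Drd2 at -0.05 (-0.13 to 0.03).

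No marker of another striatal cell type passed in edgeR. Medians were -0.02 for 15 striatal interneuron markers, 0.03 for 16 homeostatic and 0.01 for 16 reactive astrocyte markers, and -0.03 for 19 microglial markers. They were 0.01 for 17 oligodendrocyte markers, 0.01 for 10 markers of their precursors and -0.04 for 18 endothelial and mural markers. An unadjusted p under 0.05 was found for 1 interneuron, 1 homeostatic astrocyte and 2 endothelial markers on the lower side, against 3% of all genes. On the higher side it was found for 1 reactive astrocyte and 1 oligodendrocyte marker, against 2.74% of all genes. It was found for 0 microglial and 0 precursor markers. Fitted above 0, against 50.4% of all genes, were 7 of 15 interneuron, 11 of 16 homeostatic astrocyte and 8 of 16 reactive astrocyte markers. The counts were 9 of 17 for oligodendrocytes, 5 of 10 for their precursors, 4 of 19 for microglia and 6 of 18 for endothelial and mural markers. Without Q140 the same step had 18 of 19 microglial markers above 0, against 49.4% of all genes. Other lists were uneven there too, with 2 of 17 oligodendrocyte, 3 of 16 homeostatic astrocyte and 4 of 15 interneuron markers above 0. The remaining counts were 7 of 16 for reactive astrocytes, 4 of 10 for oligodendrocyte precursors and 8 of 18 for endothelial and mural markers. The members with the smallest p were the acetylcholine transporter Slc18a3 of cholinergic interneurons (-0.11), the astrocyte glutamate transporter Slc1a3 (-0.07), the microglial gene Laptm5 (-0.05), the oligodendrocyte enzyme Aspa (0.16) and the blood-brain barrier pump Abcb1a (-0.12). Against these directions, Atp1b2, a sodium pump subunit of astrocytes, was at 0.06, and the myelin gene Mobp at -0.13.

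Markers of tissue that a dissection can carry along varied between single libraries. None passed in edgeR. At an unadjusted p under 0.05, 1 cortical marker was higher and 1 lower, against 2.74% and 3% of all genes. The median log2 fold change was 0.02 for 12 cortical excitatory neuron markers, -0.04 for 6 thalamic or pallidal markers, 0.27 for 12 choroid plexus markers, 0.12 for 8 ependymal markers and -0.23 for 5 blood genes. The mean log2 CPM of the choroid plexus markers was -0.53 to 0.41 in Q140 and -0.27 to 0.93 in Q140 Ccdc82+/-, and that of the ependymal markers -1.32 to 1.91 and 0.55 to 2.04. Both pairs of ranges overlapped. The blood genes had a mean log2 CPM of -5.26 to 1.81 in Q140 (median -0.18) and -4.67 to 1.06 in Q140 Ccdc82+/- (median 0.29). Their ranges overlapped too, and the medians of these levels went the other way from the fitted -0.23. The part of such tissue in the value of Ttr was not tested.

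Interferon response genes, which cells use to signal and resist viral nucleic acid, had higher fitted values as a group, but 0 of 23 passed in edgeR. Of these 21 were fitted above 0, against 50.4% of all genes, the median log2 fold change was 0.16, and 7 had an unadjusted p under 0.05, against 5.74% of all genes. Ifi44 had 0.2923, 0.1559, 0.2688 and 0.5536 CPM in Q140 females and 0.2651, 0.319, 0.3802 and 0.4625 CPM in Q140 males. It had 0.6875, 0.3983, 1.014 and 0.6576 CPM in Q140 Ccdc82+/- females and 0.3922, 0.3658, 0.569 and 0.3713 CPM in the males. The Ifi44 ranges overlapped, and its highest values were in females of the Q140 Ccdc82+/- group. Its log2 fold change was 0.67 (95% confidence interval 0.19 to 1.14), with an adjusted p of 0.858 in edgeR. Oasl2, an oligoadenylate synthetase-like gene, was at 0.57 (0.15 to 0.98) and Ifit3, an inhibitor of viral translation, at 0.30 (0.08 to 0.52).

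The interferon level of each library, the mean log2 CPM of the 23 genes, was 0.94 to 1.27 in Q140 (median 1.01) and 0.93 to 1.71 in Q140 Ccdc82+/- (median 1.28). Female 3 had the highest level of the Q140 Ccdc82+/- group and male 2 the lowest, below every Q140 library. In a fit of females 23 of 23 genes were above 0 (median 0.28), and in a fit of males 16 of 22 (median 0.07). Leaving out 1 library at a time left 20 to 23 genes above 0. Without Q140 the same step gave a median of -0.03 over these genes, with 6 of 23 above 0, against 49.4% of all genes in that comparison. In Q140 Ccdc82-/- against the same 8 Q140 libraries the median was 0.22. The interferon levels of that group were 1.26 to 1.88 in females and 0.89 to 1.02 in males. Wild type libraries had interferon levels of 1.09 to 1.46, which overlapped with both Q140 groups.

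Chaperone and heat shock genes, which fold proteins and hold misfolded ones, had lower fitted values in 17 of 18 cases, against 49.6% of all genes, with 0 past the threshold in edgeR, 0 at an unadjusted p under 0.05 and a median log2 fold change of -0.08. Dnajb1, a cofactor of Hsp70, was at -0.16 (95% confidence interval -0.34 to 0.02) and Hsp90ab1, an abundant Hsp90 gene, at -0.05 (-0.13 to 0.02). The mean log2 CPM of the list was 5.77 to 6.30 in Q140 and 5.64 to 5.96 in Q140 Ccdc82+/-, with overlapping ranges. Q140 male 2 was the highest library, and without it the median was -0.03 with 16 of 18 below 0. In females 11 of 18 were below 0 (median -0.02) and in males 18 of 18 (median -0.14). The same step without Q140 gave a median of -0.06, with 0 of 18 above 0, against 49.4% of all genes.

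**Figure D5:**
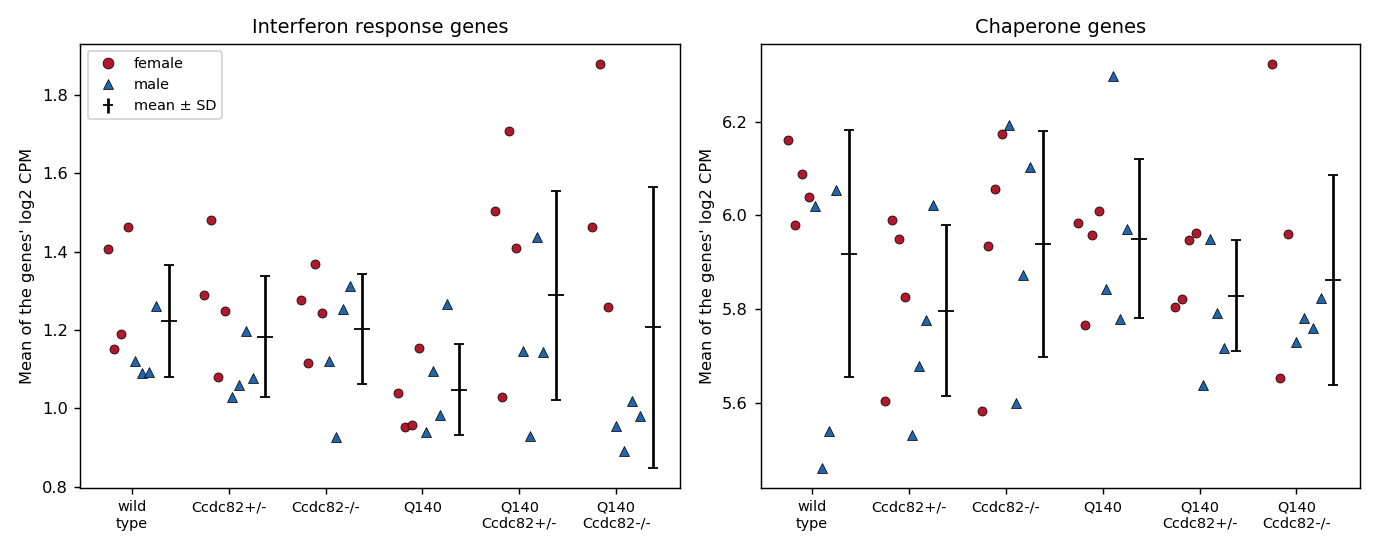
Mean log2 CPM (y axes) of the 23 interferon response genes (left) and the 18 chaperone genes (right) in each library by genotype group (x axes), with females as circles, males as triangles and the mean with its SD. In both panels the Q140 and Q140 Ccdc82+/- libraries overlap, at 0.94 to 1.27 and 0.93 to 1.71 on the left.

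Other pathways tied to Huntington's disease also had 0 genes past the threshold in edgeR. Of 41 nuclear genes of oxidative phosphorylation 7 were fitted above 0, against 50.4% of all genes. Their median log2 fold change was -0.02, with values from -0.05 to 0.05, and 1 was lower at an unadjusted p under 0.05, against 3% of all genes. Without Q140 the same step had 37 of 41 above 0, against 49.4% of all genes, and a median of 0.02. Of 24 cholesterol synthesis genes 8 were above 0 (median -0.02), and 2 were lower at an unadjusted p under 0.05, against 3% of all genes. One was Ebp, a sterol isomerase, at -0.11 with an unadjusted p of 0.0139 in edgeR. Of 20 genes of the unfolded protein and integrated stress response 6 were above 0 (median -0.03). At an unadjusted p under 0.05 were 3 of these 20, 1 higher and 2 lower, against 5.74% of all genes. Herpud1, a gene of endoplasmic reticulum protein disposal, was at -0.10 (95% confidence interval -0.19 to -0.00). Of 23 immediate early genes, which neuronal activity induces, 10 were above 0 (median -0.01) and 0 had an unadjusted p under 0.05, with intervals as wide as -0.14 to 0.97 for Btg2.

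Of 14 mismatch repair and modifier genes, several of which act on the length of the Htt repeat, 11 were fitted above 0, against 50.4% of all genes, with a median log2 fold change of 0.03 that was -0.016 in females. Exo1, a DNA exonuclease of mismatch repair, had 0.375 to 0.749 CPM in Q140 (median 0.482) and 0.417 to 1.14 CPM in Q140 Ccdc82+/- (median 0.761). The Exo1 ranges overlapped, with a log2 fold change of 0.53 (95% confidence interval 0.17 to 0.89) and an adjusted p of 0.858 in edgeR. Fan1, a nuclease that modifies disease onset, was at 0.08 (-0.03 to 0.19), and Msh3, which drives repeat expansion, at 0.03.

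Of 13 mitochondrially encoded genes 7 were above 0, with a median log2 fold change of 0.03. The highest values were those of mt-Atp8 (0.23, adjusted p 0.858 in edgeR) and mt-Atp6 (0.15), which have near-identical nuclear copies, so the assignment of their reads is uncertain. Medians were -0.02 for 19 p53 targets, 0.00 for 57 clustered protocadherins, 0.16 for 9 developmental transcription factors (-0.191 in females, 0.455 in males) and -0.03 for 14 neuropeptide genes. Onecut1, a developmental transcription factor, had 0.0638 to 0.515 CPM in Q140 and 0.153 to 0.797 CPM in Q140 Ccdc82+/-. Its log2 fold change was 0.78 (95% confidence interval 0.15 to 1.42), with an adjusted p of 0.858 in edgeR. By sex it was 0.07 in females and 1.57 in males.

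Whether the heterozygous step differed between mice with and without Q140 was tested as a difference of differences. In edgeR 0 of 19193 genes passed (0%), and 1011 had an unadjusted p under 0.05. DESeq2 called 1 gene, the processed pseudogene Gm10123, at -0.16 ± 0.03 (SE) on the log2 scale with an adjusted p of 0.0151. It was at 157 to 176 CPM in Q140, 154 to 162 CPM in Q140 Ccdc82+/-, 138 to 153 CPM in Ccdc82+/- and 133 to 141 CPM in wild type. In edgeR Gm10123 had an adjusted p of 0.185. The same step averaged over both Htt genotypes, from 32 libraries that include the 16 of the main comparison, had 1 gene past the threshold in edgeR, Ccdc82, and 758 with an unadjusted p under 0.05.

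The difference of the step between females and males within Q140 was past the threshold for 0 of 19714 genes (0%) in edgeR, with 1185 at an unadjusted p under 0.05. With DESeq2 this difference was not run. Side by side, and sharing the 8 Q140 libraries, Q140 Ccdc82-/- against Q140 also had 1 gene past the threshold, Ccdc82, and 712 at an unadjusted p under 0.05 in edgeR.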

How the data were processed

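RNA was extracted with a Qiagen RNeasy kit and sequenced as TruSeq stranded libraries, per the labels' protocols. HTSeq 0.12.3, STAR 2.7.5c and SAMtools 1.10 are listed in the submitters' processing notes, with GRCm38 and mm10; settings, strand mode and annotation release are not given in the sources used here. The authors deposited raw read counts per gene (48795 genes, 47 libraries) and FPKM values, which they scaled by gene length and column total.

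Groups were taken from the sample labels, and positions from GENCODE M21 (48435 identifiers found). In R 4.3.3, edgeR 4.0.16 filtered low counts with filterByExpr, leaving 19193 genes, scaled libraries by TMM, and fitted a robust quasi-likelihood model of the 6 groups plus sex to the 47 libraries. The threshold was 0.05 for p-values adjusted by Benjamini and Hochberg over all genes tested; intervals are 95% confidence intervals and cover the spread between libraries. PCR duplicates cannot be told from independent molecules. CPM in the text is TMM-scaled. A separate model with 12 coefficients, 1 per group and sex, tested the sex difference.

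Named genes were Ccdc82, Htt, genes within 1 Mb of Ccdc82, the 10 with the smallest p in each direction among genes whose log2 CPM averaged 1 or more, the 3 with the smallest p of each of 27 gene lists, and the 10 that rose and fell most with Q140; a few others serve as examples from the lists. One named gene is not reported here. The comparison, lists and rules were chosen with earlier results of these data known. Alternatives used DESeq2 1.42.0, limma 3.58.1 and the settings in the closing section; those for list medians, for the Q140 gene level without each library and for 3 side comparisons were chosen after seeing the data.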

Additional observations from a re-analysis of the deposited data

Results flagged for a closer look

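Single libraries stood apart from the other 7 of their group in 21 of 306 groups of 8 values examined (6.86%). The rule would mark about 1 in 20 groups of independent, normally distributed values. These groups share the same 16 libraries and many of the genes were picked by p, so 6.86% cannot be judged against that rate. The gap to the nearest library was compared with the whole range of the group, at a critical ratio of 0.526. No explanation was tested.

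In Q140, Pdyn was at 108.5 CPM in female 1 (others 74.2 to 89.98). Lamp5, a cortical neuron marker, was at 134.5 CPM in male 1 (others 111.8 to 117.2), Herpud1 at 54.14 CPM in male 2 (others 41.3 to 45.8) and Pcdhb14 at 28.65 CPM in female 3 (others 23.3 to 25.6). In Q140 Ccdc82+/-, Gm10123 was at 162 CPM and Gtse1 at 0.9756 CPM in male 2, Tyrobp at 8.953 CPM in female 3, and Mtmr2 low at 51.25 CPM in male 1. Female 4 of that group had high Gm11993 (8.417 CPM), low Sfmbt2 (5.545 CPM, others 8.70 to 10.97) and high Gpx6 (4.515 CPM, others 1.504 to 2.64). Sfmbt2 rises and Gpx6 falls with Q140, and female 4 also had the lowest level of the Q140 genes in its group.

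List levels, as mean log2 CPM, stood apart in Q140 male 2, with 5.997 for direct pathway markers (low) and with 3.854 for striatal interneuron markers, 6.298 for chaperones and 4.979 for the unfolded protein and integrated stress response (all high). Q140 male 1 was low in ependymal markers at -1.324 and in reactive astrocyte markers at 2. Blood genes were low at -5.261 in Q140 female 3 and at -4.67 in Q140 Ccdc82+/- female 2. In Q140 Ccdc82+/-, developmental transcription factors were low at -0.8484 in female 4 and immediate early genes at 3.971 in female 1.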

How the results depend on the processing

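The main comparison had 1 gene past the threshold, Ccdc82, in 29 of 31 alternative fits, and 0 genes in females only and 0 in males only, each with 4 libraries a group. Ccdc82 was at -0.49 on the log2 scale (adjusted p 0.0624 in edgeR) in females only and -0.376 (adjusted p 0.605) in males only. Over all alternatives it ranged from -0.49 to -0.36, with adjusted p from 2.13e-06 to 0.605. Leaving out each of the 16 libraries in turn gave counts of 1 to 1 and Ccdc82 values of -0.475 to -0.405. It also passed with plate column or plate row as a factor. The difference of the step with and without Q140 had 1 gene in DESeq2. The Q140 gene level differed by 0.022 to 0.090 when each library was left out. With the replicate block the main comparison had 1 gene, as without it. Libraries of the same sex and replicate number had correlations of -0.0989 to 0.0647, and 0 of 8 matched their own replicate number best. These pairs did not use the number in the library name. Medians of the mismatch repair list (females -0.016), developmental transcription factors (females -0.191, males 0.455) and rising Q140 genes (females -0.0207, males 0.12) moved beyond the spread between libraries. Of 122 other named genes 33 changed sign under at least 1 alternative, as did 20 of 29 list medians. The count at an unadjusted p under 0.05 was 758 to 1853. The causes of these shifts were not tested, and the fits of 1 sex hold fewer libraries. Depth limits genes of low level, such as Ifi44, Exo1 and Onecut1 at about 1 CPM or less.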
